A study of Mus musculus with 24 samples.

Results

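The 9 genes described here code for receptors with which blood stem and progenitor cells move to, enter and stay in a niche: Cxcr4, Itga4, Itgb1, Itgal, Itgb2, Cd44, Selplg, Cd47 and Esam. They were taken by gene symbol as 9 of the 55487 distinct genes of a count table, and all 9 were among the 23059 genes that passed a filter on low counts. The table held 24 RNA-seq libraries of mouse LSK cells (lineage-negative, Sca-1-positive, KIT-positive), in 6 groups of 4. The study's title names MLL::ENL leukemogenesis, fetal protection against it, and MLL3, and its design text speaks of lineage-negative KIT-positive progenitors where the labels say LSK. From the liver at postnatal day 0 there were wild-type mice (P0 WT) and mice with a human MLL::ENL transgene under Tet-off control, induced at E10.5 (embryonic day; P0 ME). From the bone marrow at day 28 there were wild-type mice (P28 WT), mice with the transgene induced at E10.5 (E10.5-induced ME), mice with it induced at P0 (P0-induced ME), and a group with E10.5 induction titled ME RLT Vav Txp (RLT Vav Txp group), an abbreviation that was not interpreted. The titles of these 4 libraries carry tags of their own, and whether the animals share a donor or litter is not given. The SEs and p-values for this group treat its libraries as independent, which could not be checked. In the fit of all 24 libraries these SEs rest on a spread per gene shared by the 6 groups, not on this group alone. The promoter behind the Tet transactivator, the sex of the mice and any pooling are not given in the labels. No row of the mouse table was for the human transgene, whose level is not analysed here.

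The members act at successive steps of homing. Selplg codes for PSGL-1, the ligand that lets rolling cells hold on to P- and E-selectin on the vessel wall, and Cd44 for a hyaluronan receptor that also carries selectin-binding sugars. Cxcr4 codes for the receptor of the chemokine CXCL12, which draws stem cells from the fetal liver to the marrow and retains them there. Integrins are pairs of an alpha and a beta chain: Itga4 with Itgb1 forms VLA-4, which binds VCAM-1 and fibronectin, and Itgal with Itgb2 forms LFA-1, which binds ICAMs. Cd47 codes for the "do not eat me" signal read by SIRPα on macrophages, and Esam for a junctional adhesion molecule that is also a surface marker of hematopoietic stem cells and endothelium.

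Promoter sequences of Cxcr4 and Cd44 are shown because these were the members that passed the test in a comparison and had an entry in the RefSeq promoter table used (5 of the 9 members had one). Each run is the 250 bases before the RefSeq start, on the gene's own strand, which is minus for both on GRCm38.p6. Capitals mark matches to 5 motifs searched on both strands. The GC box was searched as GGGCGG and the TATA box as TATAAA. The ETS motif was searched as GGAAGT, the RUNX motif as TGTGGT and the GATA motif as AGATAA.
Cxcr4, chr1:128592300-128592549: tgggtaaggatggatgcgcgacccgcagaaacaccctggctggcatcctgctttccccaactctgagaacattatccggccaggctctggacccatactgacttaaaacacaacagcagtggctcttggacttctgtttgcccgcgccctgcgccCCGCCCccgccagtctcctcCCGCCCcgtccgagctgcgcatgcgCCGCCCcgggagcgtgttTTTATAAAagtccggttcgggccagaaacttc
Cd44, chr2:102901666-102901915: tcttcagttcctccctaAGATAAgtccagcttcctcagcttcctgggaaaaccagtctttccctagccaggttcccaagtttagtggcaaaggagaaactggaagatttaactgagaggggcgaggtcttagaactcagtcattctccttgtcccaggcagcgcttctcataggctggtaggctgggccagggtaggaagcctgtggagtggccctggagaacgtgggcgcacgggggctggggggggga
The Cxcr4 window held 3 GC boxes and 2 TATA matches that overlap on opposite strands. The Cd44 window held 1 GATA match and none of the other motifs. Among 32851 promoter windows of the same length, 32.7% held the GC box, 12.4% the TATA box and 9.99% the GATA motif. A match describes letters, not a bound factor.

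Library totals ran from 31233688 to 89774511 counts, and every member had at least 543 counts in every library. Counting error was therefore small beside most of the spread between libraries. It was not small beside the smallest spread, that of Esam in P0-induced ME (2162 to 2791 counts, SD 2.53% of the mean). The marker genes showed that the libraries within each P0 group were not alike. The P0 libraries numbered 1, of WT and of ME, had summed levels of 10 LSK markers of 4729 and 4998 CPM (TMM-normalised read counts relative to library size), inside the 4559 to 5525 CPM of the 12 libraries of P28 WT and of the E10.5- and P0-induced ME groups. The other 6 P0 libraries had 2301 to 3368 CPM of LSK markers. They also had 1250 to 1822 CPM of 10 macrophage markers against 121 to 129 CPM in the libraries numbered 1, 11647 to 39294 CPM of 10 neutrophil markers against 850 to 903 CPM, and 4681 to 14573 CPM of 9 erythroid markers against 277 to 605 CPM. The libraries numbered 1 also differed from marrow and from each other, with 5857 CPM of 7 mast cell and basophil markers in WT and 45.3 CPM in ME, against 7.87 to 43.7 CPM in those 12 marrow libraries, and 270.0 CPM of 8 B-lymphoid markers in ME against 56.3 to 92.1 CPM. The RLT Vav Txp libraries stood apart from the other marrow libraries too, with 2197 to 3240 CPM of LSK markers and 613 to 2699 CPM of macrophage markers, against 41.2 to 96.9 CPM in those 12. Their neutrophil sum was 2182 to 7085 CPM against 672 to 1830 CPM. The sorting gene Kit was present in every library, at 169 CPM or more. All P0 cells were from liver and all P28 cells from marrow. Age and tissue therefore cannot be told apart, and comparisons that use the same control group are not independent of each other.

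**Figure D1:**
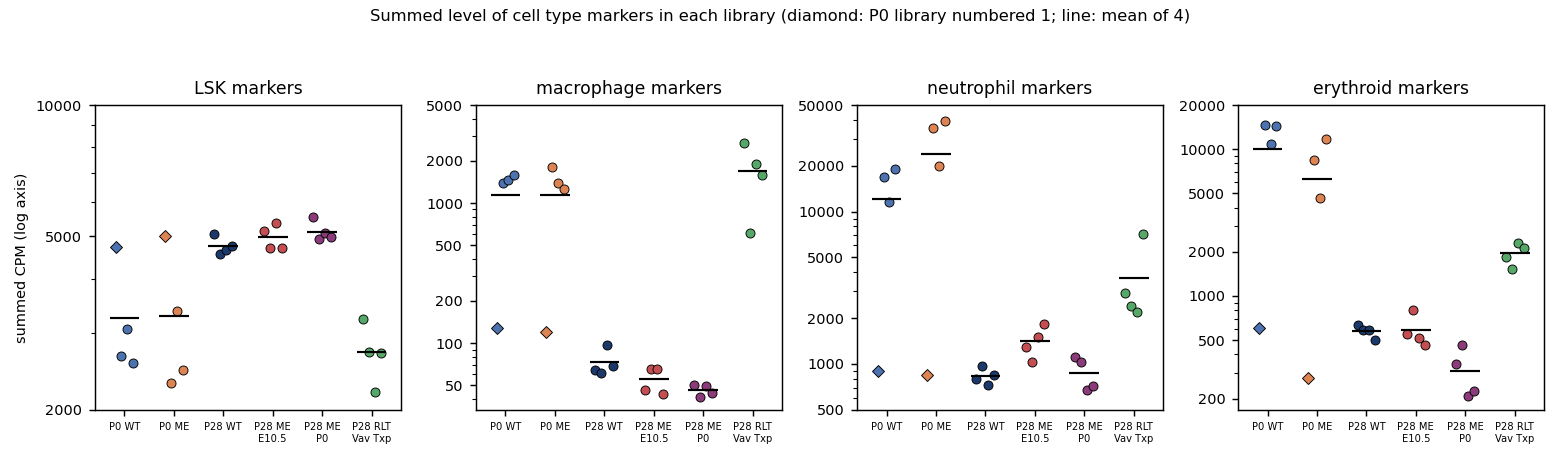
Summed TMM-normalised CPM of LSK, macrophage, neutrophil and erythroid markers (log axes) in each of 24 libraries, 1 point per library, with the group mean as a line. The diamonds, the P0 libraries numbered 1, hold 121 to 129 CPM of macrophage markers where the other P0 libraries hold 1250 to 1822 CPM, and the RLT Vav Txp libraries hold 613 to 2699 CPM of macrophage markers.

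Per kilobase of exon, the level of the members over the 24 libraries spanned more than an order of magnitude. Cd47 was highest at 156 CPM per kb, followed by Itgb1 at 114, Selplg at 56.5 and Itgb2 at 39.4. Cd44 (22.5) and Cxcr4 (22.5) were level with each other, and Esam (16.5), Itgal (15.9) and Itga4 (6.74) were lowest. Thus in both integrin pairs the beta chain was the more abundant per kb, where the length counts all annotated exons. In plain CPM mean Itgal was above mean Itgb2 in E10.5-induced ME (161 and 116 CPM) and P0-induced ME (118 and 116 CPM). It was below Itgb2 in the other groups. Across libraries Itgal varied most, 12.2-fold from lowest to highest, then Esam, 9.20-fold, while Selplg varied least, 2.26-fold. When the 6 groups were ordered by mean for each member, 41 of the 45 pairs of neighbouring groups overlapped. The 4 that did not were Itga4 between the RLT Vav Txp group and P28 WT, Cd47 between P0 ME and P0-induced ME, and Esam between P28 WT and P0-induced ME and between E10.5-induced ME and P0 ME. The same count was not made for all genes, so it does not set the members apart from other genes.

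**Figure D2:**
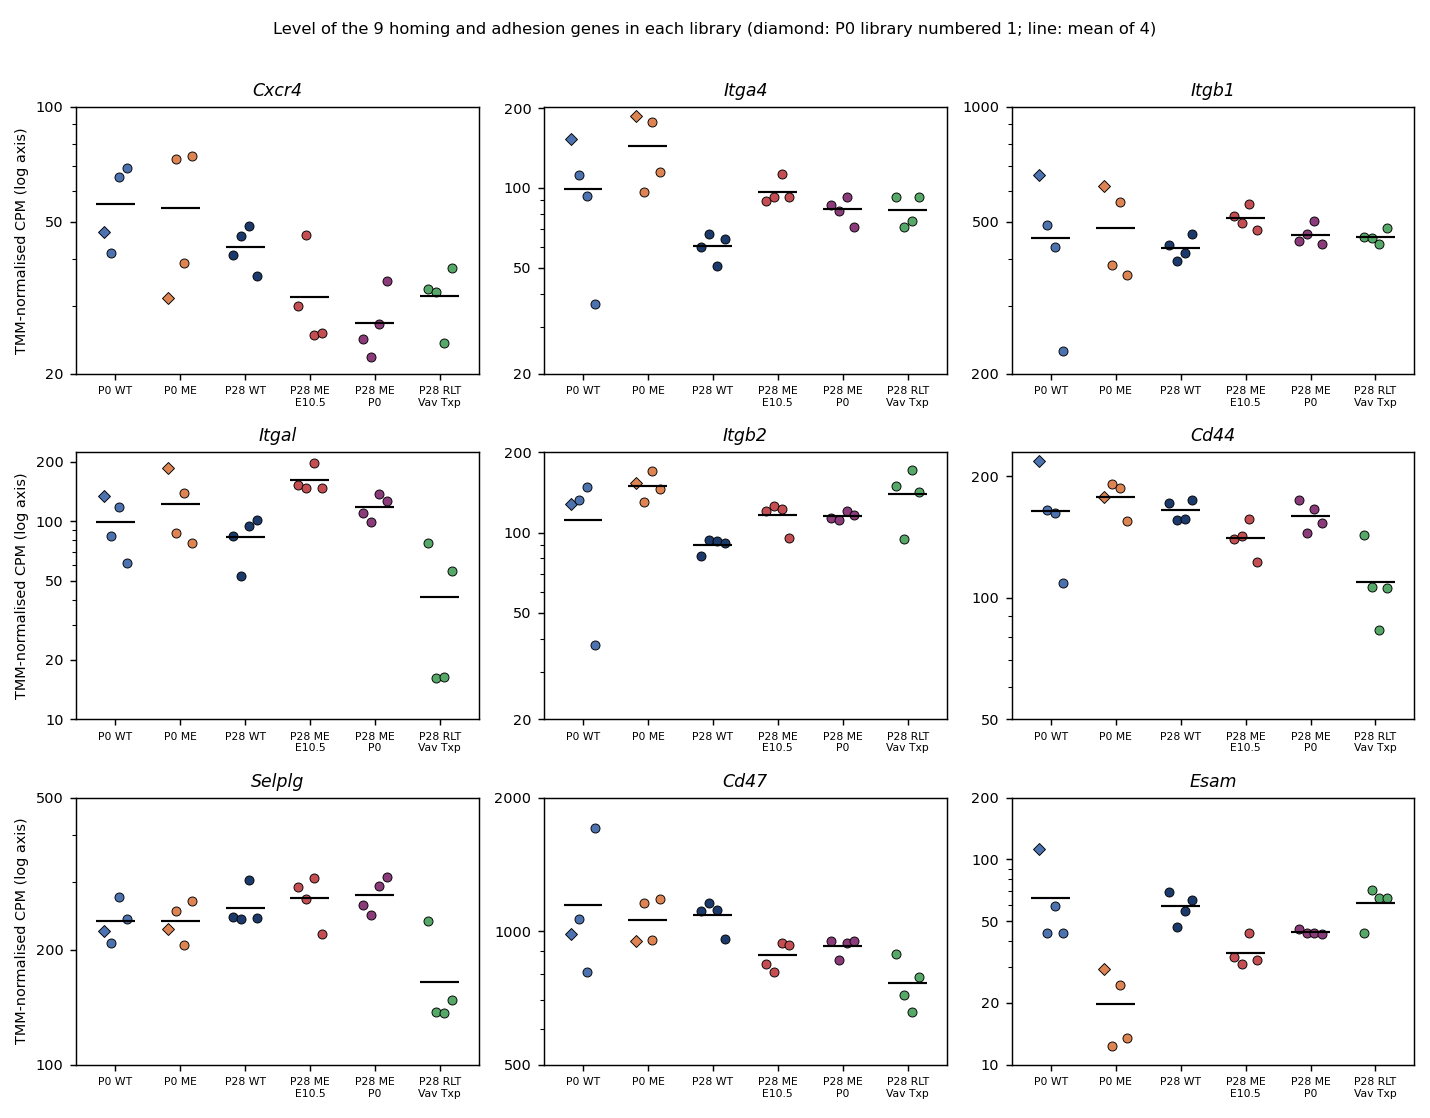
TMM-normalised CPM of the 9 members (log axes) in each of 24 libraries in 6 groups, with the mean of 4 as a line and the P0 libraries numbered 1 as diamonds. Esam is lowest in P0 ME (12.3 to 29.1 CPM) and Itgal lowest in the RLT Vav Txp group (16.2 to 77.8 CPM).

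The comparisons ask how the transgene, the time of its induction and the age and tissue of the cells went with the expression of these receptors. A gene was called at an edgeR adjusted p under 0.05 over all 23059 genes. In P0 ME against P0 WT 1 of the 9 members fell, Esam, where 0.642% of all genes tested were called and 0.278% fell. In E10.5-induced ME against P28 WT none of the 9 was called by edgeR (3 had an unadjusted p under 0.05, DESeq2 called 1 and limma 4), where 12.3% of all genes were called. The group ranges did not overlap for 6 of the 9 there, and for 28.2% of all genes. In P0-induced ME against P28 WT none was called by edgeR (1 unadjusted, DESeq2 0, limma 2), beside 1.57% of all genes, and 5 did not overlap, beside 24.8%. Between the 2 induction times none was called by edgeR, DESeq2 or limma (0 unadjusted), beside 0.0477% of all genes, and 1 did not overlap, beside 11.8%.

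The RLT Vav Txp group gave the most calls. Against P28 WT 2 members fell, Cd44 and Selplg, where 4.12% of all genes were called and 1.48% fell. Against E10.5-induced ME Itgal and Selplg fell and Esam rose, where 17.9% of all genes were called, and against P0-induced ME Itgal, Cd44 and Selplg fell, where 11.7% were called and 4.9% fell. In P28 against P0, none was called in WT (1 unadjusted, DESeq2 0, limma 1), beside 7.68% of all genes, and 0 did not overlap, beside 9.27%. In the E10.5-induced ME cells Cxcr4 fell and Esam rose from P0 to P28, 2 of 9 beside 18.2% of all genes. No member's ME effect differed between P28 and P0 by edgeR (1 unadjusted, DESeq2 0, limma 0), beside 0.72% of all genes. In a bulk library, fewer cells of a type and less RNA per cell cannot be told apart. The RLT Vav Txp and P0 libraries behind these calls also differed from other libraries in their marker sums. The part of the marker sums in the calls was not tested.

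**Figure D3:**
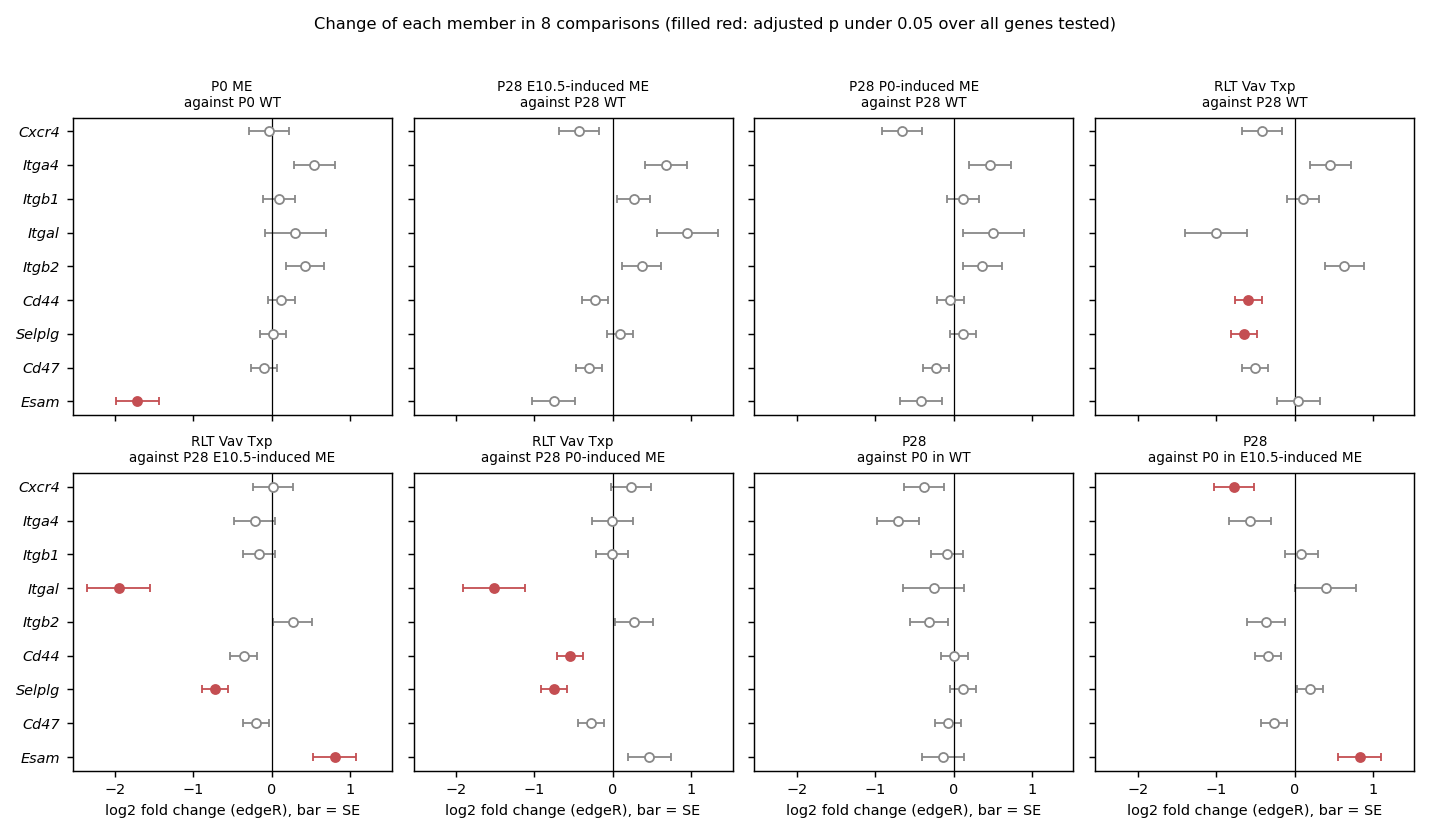
Log2 fold change of the 9 members with its SE (edgeR) in 8 comparisons, with filled red points for an adjusted p under 0.05. Esam in P0 ME against P0 WT (-1.71) and Itgal in the RLT Vav Txp group against E10.5-induced ME (-1.95) lie farthest from 0.

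Cxcr4 (ENSMUSG00000045382, chromosome 1, 128588199 to 128592293, GRCm38) fell from P0 liver to P28 marrow in E10.5-induced ME cells, its only call. The 4 libraries of P0 WT had 47.1, 41.4, 65.4 and 69.1 CPM and those of P0 ME 31.6, 73.2, 38.9 and 74.2. At P28 the WT libraries had 40.8, 45.9, 48.6 and 36.1 CPM, the E10.5-induced ME libraries 30.1, 46.1, 25.3 and 25.5 and the P0-induced ME libraries 24.6, 22.1, 27.0 and 34.9. In the RLT Vav Txp libraries it was 33.2, 32.7, 24.1 and 37.8 CPM. Every P0-induced ME library was below every P28 WT library, while the E10.5-induced ME and P28 WT groups overlapped through 1 ME library at 46.1 CPM. P28 against P0 in ME cells gave a log2 change of -0.78 with an SE of 0.26 (adjusted p = 0.036, edgeR), although the ranges overlapped. Without both P0 libraries numbered 1 it was -0.96, and the call was lost with limma and when only those 2 groups were fitted. It was lost too on removing P0 ME library 2 or 4 or E10.5-induced ME library 1, 3 or 4, with values of -1.01 to -0.59 over 8 such fits. In WT the same contrast was -0.38 with an SE of 0.26 (adjusted p = 0.42, edgeR). Against P28 WT, P0-induced ME gave -0.66 with an SE of 0.26 (adjusted p = 0.145, edgeR) and E10.5-induced ME -0.43 with an SE of 0.26 (adjusted p = 0.289, edgeR), neither of which passed. The first was called by limma (adjusted p = 0.0258) and when only those 2 groups were fitted (edgeR adjusted p = 0.00316), and the second in the fit of its 2 groups (edgeR adjusted p = 0.0427). Over the 8 alternatives adjusted p ran from 0.00316 to 0.221 and from 0.0427 to 0.319 (edgeR, DESeq2 and limma).

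The 20 listed genes that carry or end the CXCR4 signal were all tested. Against P28 WT, E10.5-induced ME had 5 of them higher and 4 lower where 12.3% of all genes were called, and the median of the 20 was 0.26 on the log2 scale beside -0.10 for all genes. Higher were the receptor kinase gene Grk6, at 0.98 (SE 0.19, adjusted p = 0.003 by edgeR), and the beta-arrestin gene Arrb1, at 0.86 (SE 0.22, adjusted p = 0.0138 by edgeR), whose products switch off chemokine receptors. Lower were Rgs10, which speeds the turn-off of G proteins, at -1.27 (SE 0.26, adjusted p = 0.00408 by edgeR), and Dpp4, a protease that cleaves CXCL12, at -0.88 (SE 0.29, adjusted p = 0.0477 by edgeR). With plain library totals the split was 1 higher and 3 lower, so the count of higher genes depends on the scaling. Arrb1 and Dpp4 were each lost in 1 alternative, and without 1 library they were called in 6 and 1 of 8 fits. The RLT Vav Txp group against E10.5-induced ME had 3 of the 20 higher and 6 lower, where 17.9% of all genes were called. The split was 4 and 4 with RLE factors and with DESeq2, 3 and 3 without a filter on low counts, and 5 and 10 with limma. There Rgs10 was 2.48 (SE 0.27, adjusted p = 1.8e-06 by edgeR), with 34.1 ± 9.03 CPM against 6.12 ± 1.21 CPM (SD, n = 4), and Arrb1 -0.83 (SE 0.22, adjusted p = 0.0126 by edgeR). Cxcl12 itself was 59.9 ± 49.2 CPM in the RLT Vav Txp libraries and 5.42 ± 2.75 CPM in P28 WT (SD, n = 4), beside summed stromal markers of 36.1 to 178 CPM in the former and 32.2 to 47.0 CPM in the latter. Cxcl12 is one of the 8 stromal markers, and their part was not tested.

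The VLA-4 chains Itga4 and Itgb1 stood higher in ME than in WT marrow without passing the test. Itga4 (ENSMUSG00000027009, chromosome 2, 79255426 to 79333123) had 60.0, 66.9, 51.0 and 64.0 CPM in the P28 WT libraries, 89.0, 92.1, 113 and 92.4 in E10.5-induced ME and 86.5, 82.1, 92.6 and 71.4 in P0-induced ME. In RLT Vav Txp libraries it was 92.7, 71.1, 74.9 and 92.8 CPM. P28 WT was the lowest of the 4 marrow groups and overlapped none of the other 3. Against P28 WT the log2 changes were 0.68 with an SE of 0.26 (adjusted p = 0.0925, edgeR) in E10.5-induced ME, 0.46 with an SE of 0.26 (adjusted p = 0.336, edgeR) in P0-induced ME and 0.46 with an SE of 0.26 (adjusted p = 0.456, edgeR) in the RLT Vav Txp group. These 3 comparisons share the P28 WT libraries. The first was called by limma with quality weights and in a fit of only the 2 groups compared (0.60), and its adjusted p over 8 edgeR, DESeq2 and limma alternatives ran from 0.00155 to 0.242. Itga4 shares 1124 of its exon bases (8.04%) with Cerkl on the opposite strand, and the strand setting of the counting is not given in the sources used here, so reads there cannot be assigned to one gene.

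At P0, Itga4 had 153, 112, 93.5 and 36.7 CPM in WT and 186, 96.4, 177 and 115 CPM in ME, at a log2 change of 0.54 with an SE of 0.26 (adjusted p = 0.356, edgeR). P0 WT library 4 was the lowest of the 24 and reached 36.7 CPM. P28 against P0 in WT gave -0.71 with an SE of 0.26 (adjusted p = 0.104, edgeR), and without P0 WT library 4 it gave -0.99 (edgeR adjusted p = 0.00223), past the threshold. Omitting both P0 libraries numbered 1 instead, it was -0.42. Itgb1 (ENSMUSG00000025809, chromosome 8, 128685654 to 128733200), the shared beta chain of many integrins, ranged over 229 to 664 CPM in the 24 libraries and was not called in any comparison. Its 4 libraries spanned 394 to 463 CPM in P28 WT and 476 to 556 CPM in E10.5-induced ME, which did not overlap, at 0.26 with an SE of 0.21 (adjusted p = 0.442, edgeR). In P0 WT they spanned 229 to 664 CPM, wider than in any marrow group.

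Since both chains were read in the same library, their ratio does not depend on the scaling. The level of Itga4 per kb of exon was 0.0673, 0.0664, 0.0634 and 0.0469 of that of Itgb1 in the P0 WT libraries and 0.0878, 0.0731, 0.0919 and 0.0925 in P0 ME, where each ME library was above each WT library. At P28 it was 0.0404, 0.0495, 0.0359 and 0.0404 in WT and 0.0502, 0.0541, 0.0593 and 0.0566 in E10.5-induced ME, again without overlap, the nearest libraries being 0.0495 and 0.0502. P0-induced ME, at 0.0477 to 0.0569, and the RLT Vav Txp group, at 0.0458 to 0.0592, overlapped P28 WT. These ratios were chosen after the levels had been seen and carry no test.

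Itgal (ENSMUSG00000030830, chromosome 7, 127296260 to 127335138), the alpha chain of LFA-1, was lower in the RLT Vav Txp group than in either of the other ME groups at P28. Its level was 77.8, 16.2, 16.3 and 55.7 CPM, against 152, 146, 197 and 148 in E10.5-induced ME and 110.2, 98.6, 137 and 127 in P0-induced ME. The P28 WT libraries had 84.0, 52.7, 95.1 and 101 CPM. Libraries 2 and 3 of that group were the lowest of all 24, while libraries 1 and 4 of that group lay within the range of P28 WT. Against E10.5-induced ME the log2 change was -1.95 with an SE of 0.40 (adjusted p = 0.00237, edgeR), a level 3.88-fold lower, and the call held in all 6 alternatives and in all 8 fits without 1 library (-2.46 to -1.69). Against P0-induced ME it was -1.51 with an SE of 0.40 (adjusted p = 0.0162, edgeR), with the call lost on removing RLT Vav Txp library 3 (-1.25, edgeR adjusted p = 0.0538), without a filter on low counts and in the fit of only those 2 groups. Its adjusted p over the 6 edgeR, DESeq2 and limma alternatives ran from 3.35e-06 to 0.0732. Against P28 WT it was -1.01 with an SE of 0.39 (adjusted p = 0.184, edgeR), and without RLT Vav Txp library 1 it passed at -1.50 (edgeR adjusted p = 0.0264). The macrophage sums of RLT Vav Txp libraries 1 to 4 were 2699, 613, 1887 and 1574 CPM. Library 1 was highest and library 2 lowest both for these sums and for Itgal, while libraries 3 and 4 changed places. The part of the macrophage sums was not tested.

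E10.5-induced ME had the highest mean level of Itgal, 161 ± 24.2 CPM (SD, n = 4), and all 4 of its libraries were above all 4 of P28 WT. That difference of 0.95 with an SE of 0.39 (adjusted p = 0.114, edgeR) did not pass, although 4 of 8 alternatives called it, among them limma and the fit of only these 2 groups (0.87), with adjusted p from 0.00117 to 0.289 over the 8 edgeR, DESeq2 and limma alternatives. At P0, WT had 134, 84.4, 118 and 61.3 CPM and ME 185, 87.5, 139 and 78.0 CPM, and the groups overlapped (0.30, SE 0.39, adjusted p = 0.782, edgeR).

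Itgb2 (ENSMUSG00000000290, chromosome 10, 77530252 to 77565708), the beta chain of LFA-1 and of Mac-1, did not follow Itgal in the RLT Vav Txp group. There it had 149.7, 94.8, 171 and 142 CPM, each above the P28 WT libraries at 81.5, 93.5, 92.9 and 91.5 CPM, at a log2 change of 0.63 with an SE of 0.25 (adjusted p = 0.18, edgeR). E10.5-induced ME spanned 95.4 to 126 CPM and P0-induced ME 111 to 120.5 CPM, both above every P28 WT library, at 0.37 with an SE of 0.25 (adjusted p = 0.357, edgeR) and 0.36 with an SE of 0.25 (adjusted p = 0.432, edgeR). None of the 3 passed. At P0, ME spanned 130.3 to 170.3 CPM and WT 38.1 to 148 CPM, the low end being P0 WT library 4 alone. P28 against P0 in WT was -0.31 with an SE of 0.25 (adjusted p = 0.504, edgeR) and passed only without that library (-0.62, edgeR adjusted p = 0.014).

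The ratio of Itgal to Itgb2 per kb of exon was 0.241, 0.0792, 0.0441 and 0.183 in the RLT Vav Txp libraries. It was 0.588, 0.541, 0.748 and 0.720 in E10.5-induced ME, 0.451, 0.411, 0.528 and 0.505 in P0-induced ME and 0.479, 0.262, 0.475 and 0.514 in P28 WT. All 4 RLT Vav Txp libraries were below the other 20, of which the lowest was 0.249 in P0 ME. E10.5-induced ME, at 0.541 to 0.748, was above all libraries of P0-induced ME and P28 WT.

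**Figure D4:**
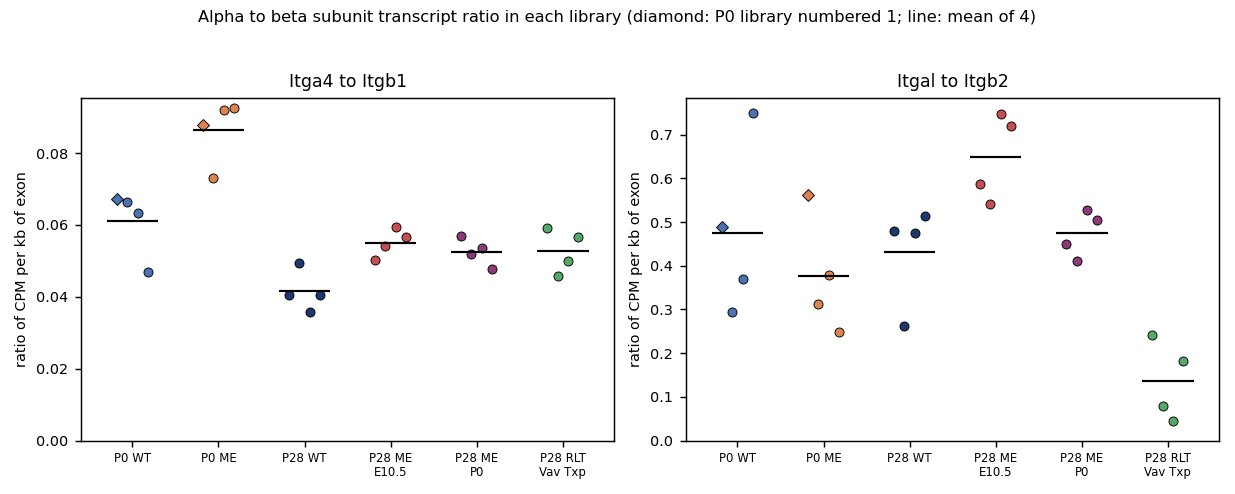
Ratio of alpha to beta chain transcript (CPM per kb of exon, linear axes from 0) for Itga4 to Itgb1 and Itgal to Itgb2 in each of 24 libraries, with the mean of 4 as a line. Itgal to Itgb2 is 0.0441 to 0.241 in the RLT Vav Txp group and 0.249 or more in the others.

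Genes that switch integrins on were listed separately, 24 in all and each tested. E10.5-induced ME against P28 WT had 7 of them higher and 3 lower where 12.3% of all genes were called, with a median of 0.36 beside -0.10 for all genes. Tln1, whose product talin binds the beta-chain tail and activates the integrin, rose, at 1.70 (SE 0.33, adjusted p = 0.00349 by edgeR) on the log2 scale, from 245 ± 51.9 CPM to 796 ± 172 CPM (SD, n = 4). Fermt3, for kindlin-3, the second activator in blood cells, rose too, at 0.90 (SE 0.21, adjusted p = 0.00731 by edgeR). Itgb1bp1, for the integrin inhibitor ICAP-1, fell, at -0.81 (SE 0.20, adjusted p = 0.0116 by edgeR). It also fell in P0-induced ME, at -0.82 (SE 0.20, adjusted p = 0.0454 by edgeR), a call kept in 1 of 8 fits without 1 library. It was the only one of the 24 called by edgeR in P0-induced ME against P28 WT, where 1.57% of all genes were called. In that comparison DESeq2 called 3 higher and 3 lower, limma 9 and 3, and the fit of only those 2 groups 8 and 3. A difference between the 2 induction times is not shown by these counts. For E10.5 induction 4 were higher and 3 lower with plain totals, and 4 and 1 without a filter, while Tln1, Fermt3 and Itgb1bp1 kept the E10.5 call in all 8 alternatives. In the RLT Vav Txp group against E10.5-induced ME 4 were higher and 6 lower (4 and 4 with plain totals), where 17.9% of all genes were called, among them Rassf5, the RAP1 effector that activates LFA-1, at -0.83 (SE 0.15, adjusted p = 0.000843 by edgeR). Rap1b, the small GTPase upstream of it, went the other way, at 0.90 (SE 0.14, adjusted p = 0.000169 by edgeR). In P0 ME against P0 WT only Fyb, an adaptor of that pathway, was called (0.89, SE 0.19, adjusted p = 0.0251 by edgeR), where 0.642% of all genes were called. Without single libraries Fyb was called in 3 of 8 fits.

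Of 22 other integrin chains 20 were tested. The RLT Vav Txp group had higher Itga2b, the platelet integrin chain and 1 of the 8 megakaryocyte markers, at 2.39 (SE 0.39, adjusted p = 0.000412 by edgeR) against P28 WT, and higher Itgb3, at 2.20 (SE 0.48, adjusted p = 0.00627 by edgeR). The megakaryocyte sum was 560 to 924 CPM there and 442 to 617 CPM in P28 WT, and its part was not tested. In P0 ME against P0 WT 1 of the 20 was called, where 0.642% of all genes were called. This was Itgam, another alpha partner of Itgb2 and a myeloid chain, at 1.48 (SE 0.31, adjusted p = 0.0247 by edgeR) with 32.6 ± 4.85 CPM against 11.7 ± 7.01 CPM (SD, n = 4). It was lost in 3 of 8 fits without 1 library and in 3 of 9 alternatives. Neutrophil marker sums were higher in P0 ME libraries 2 to 4 (19845 to 39294 CPM) than in those of P0 WT (11647 to 19095 CPM). In the libraries numbered 1 they were 850 CPM in ME and 903 CPM in WT. Itgam was 27.5 to 39.0 CPM over all 4 P0 ME libraries and 6.46 to 21.9 CPM over all 4 of P0 WT. The part of the neutrophil markers was not tested. Itgb7, which pairs with Itga4 to bind MAdCAM-1, rose from P0 to P28 in ME cells, at 1.60 (SE 0.37, adjusted p = 0.00435 by edgeR).

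Selplg (ENSMUSG00000048163, chromosome 5, 113818536 to 113832644), the PSGL-1 gene, was steady in 5 groups and fell in the sixth. Means in the 5 groups ran from 237 ± 28.5 CPM in P0 WT to 278 ± 28.8 CPM in P0-induced ME (SD, n = 4). The RLT Vav Txp libraries had 237, 137, 137 and 148 CPM, against 243, 240.3, 304 and 242 in P28 WT, 292, 272, 308 and 220.2 in E10.5-induced ME and 262, 246, 294 and 309 in P0-induced ME. In all, 3 of the 4 RLT Vav Txp libraries were below every other library of the series, and the fourth, library 1, was just below the lowest P28 WT library. The log2 change was -0.73 with an SE of 0.17 (adjusted p = 0.00414, edgeR) against E10.5-induced ME and -0.76 with an SE of 0.17 (adjusted p = 0.00457, edgeR) against P0-induced ME. Both calls were kept in all 6 alternatives and in all 8 fits without 1 library. Against P28 WT it was -0.64 with an SE of 0.17 (adjusted p = 0.0226, edgeR), with the call lost when low counts were not filtered and in 5 of 8 fits without 1 library (P28 WT 1 or 3, RLT Vav Txp 2, 3 or 4), at -0.87 to -0.55 over the 8. That group also had lower LSK and higher macrophage sums than the other marrow groups. Within it, library 1 had the highest LSK and macrophage sums (3240 and 2699 CPM) and the highest Selplg. P0 libraries 2 to 4 had LSK sums of 2301 to 3368 CPM and macrophage sums of 1250 to 1822 CPM. Their Selplg was 205 to 275 CPM. The part of the marker sums was not tested.

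Cd44 (ENSMUSG00000005087, chromosome 2, 102811141 to 102901665) fell with Selplg in the same libraries. Its levels were 143, 106, 83.3 and 106 CPM in RLT Vav Txp, 172, 156, 157 and 175 in P28 WT, 139.8, 143, 157 and 123 in E10.5-induced ME and 175, 145, 166 and 153 in P0-induced ME. All RLT Vav Txp libraries were below those of P28 WT and of P0-induced ME. The log2 changes were -0.59 with an SE of 0.17 (adjusted p = 0.0451, edgeR) and -0.55 with an SE of 0.17 (adjusted p = 0.0361, edgeR), a level 1.51-fold and 1.46-fold lower. Each call was lost without a filter on low counts and in 7 of 8 fits without 1 library, the exception being the fit without RLT Vav Txp library 1. The values over these fits ran over -0.74 to -0.48 and -0.71 to -0.44. Against E10.5-induced ME it was -0.36 with an SE of 0.17 (adjusted p = 0.144, edgeR), and without that library it passed at -0.52 (edgeR adjusted p = 0.0294). At P0, WT had 219, 166, 162 and 109 CPM and ME 178, 192, 187 and 155 CPM, with WT spread to both sides of ME.

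All 11 listed genes that build the selectin-binding sugars on PSGL-1 and CD44 were tested. Fut7, the fucosyltransferase that makes selectin ligands in leukocytes, was lower in the RLT Vav Txp group than in E10.5-induced ME, at -0.86 (SE 0.20, adjusted p = 0.00548 by edgeR) with 46.8 ± 10.6 CPM against 84.8 ± 14.0 CPM (SD, n = 4), so it fell in the same group as Selplg. It rose from P0 to P28 in WT (0.82, SE 0.20, adjusted p = 0.0118 by edgeR) and in ME (1.71, SE 0.21, adjusted p = 8.31e-06 by edgeR), while Selplg did not pass in either (0.12 and 0.20). St3gal6, a sialyltransferase of the same pathway, was lower in E10.5-induced ME than in P28 WT (-0.83, SE 0.25, adjusted p = 0.0314 by edgeR), a call kept in 1 of 8 fits without 1 library, and fell from P0 to P28 in ME (-1.89, SE 0.26, adjusted p = 2.63e-05 by edgeR). Against P28 WT, where 4.12% of all genes were called, the RLT Vav Txp group had 1 of the 11 higher and 2 lower. The higher one was Gcnt1 (0.89, SE 0.24, adjusted p = 0.0307 by edgeR, called in 2 of 8 fits without 1 library). The median of the 11 was 0.18 beside 0.01 for all genes.

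Cd47 (ENSMUSG00000055447, chromosome 16, 49800533 to 49915010) stood lower in the 3 ME groups of marrow than in P28 WT, but did not pass the test there. P28 WT had 1109, 1157, 1117 and 962 CPM, E10.5-induced ME 845, 807, 940.5 and 933, P0-induced ME 949.8, 862, 939 and 949 and the RLT Vav Txp group 889, 717, 657 and 789. None of the ME groups overlapped P28 WT. The log2 changes were -0.30 with an SE of 0.17 (adjusted p = 0.251, edgeR), -0.23 with an SE of 0.17 (adjusted p = 0.46, edgeR) and -0.51 with an SE of 0.17 (adjusted p = 0.0902, edgeR) in that order, against the same 4 WT libraries. For E10.5-induced ME 3 of 8 alternatives called it (plain totals, limma and only the groups compared), with edgeR, DESeq2 or limma adjusted p from 0.00441 to 0.302, and for P0-induced ME limma and the fit of only those 2 groups did. For the RLT Vav Txp group 4 of 6 called it, with edgeR, DESeq2 or limma adjusted p from 0.00106 to 0.153. At P0, the WT libraries had 983, 1065, 811 and 1712 CPM and the ME libraries 952, 1155, 957 and 1179, library 4 of P0 WT being the highest of the 24.

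Among the 15 listed ligands and counter-receptors of the members, 11 were tested. The RLT Vav Txp group had 5 higher than P28 WT and none lower, where 4.12% of all genes were called, and 3 higher without a filter on low counts. They included Vcam1, the VLA-4 ligand, with 355 ± 171 CPM against 14.5 ± 0.857 CPM (SD, n = 4) and a log2 change of 4.61 (SE 0.84, adjusted p = 0.00267 by edgeR), Selp, the P-selectin that binds PSGL-1, at 4.15 (SE 0.47, adjusted p = 4.36e-06 by edgeR), and Sirpa, the receptor of CD47, at 2.03 (SE 0.32, adjusted p = 0.000334 by edgeR). Each of these 3 kept the call in all 6 alternatives and in all 8 fits without 1 library. Vcam1 was also 172 ± 112 CPM in P0 ME but 7.38 ± 2.57 CPM in E10.5-induced ME at P28 (-4.54, SE 0.84, adjusted p = 0.00122 by edgeR), and at P0 the libraries numbered 1 were the lowest of each group, at 13.9 and 9.05 CPM. Vcam1 and Sirpa are also expressed by macrophages and Selp by platelets and endothelium. Macrophage sums were 613 to 2699 CPM in the RLT Vav Txp group, 1250 to 1822 CPM in P0 libraries 2 to 4 and 41.2 to 129 CPM elsewhere, so Vcam1 was high in the libraries with high macrophage markers. Endothelial sums were 72.6 to 88.4 CPM in the RLT Vav Txp group and 73.9 to 86.0 CPM in P28 WT. Megakaryocyte sums were 560 to 924 CPM and 442 to 617 CPM in that order. The part of these 3 marker lists was not tested.

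Esam (ENSMUSG00000001946, chromosome 9, 37528078 to 37538319) was the only member called between ME and WT at P0. The P0 WT libraries had 113, 43.6, 59.4 and 43.7 CPM and the P0 ME libraries 29.1, 12.3, 24.3 and 13.4 CPM, so every ME library was below every WT library. Esam was 3.28-fold lower in ME, at a log2 change of -1.71 with an SE of 0.28 (adjusted p = 0.00226, edgeR). The libraries numbered 1 differed in the same direction, with 113 CPM in WT and 29.1 CPM in ME. Without both of them the log2 change of the rest was -1.55 (edgeR adjusted p = 0.00124), and without any 1 library it stayed at -1.96 to -1.36, called in all 8 fits. The call was lost when only the 8 P0 libraries were fitted (-1.71, edgeR adjusted p = 0.512) and with limma quality weights (-1.53, limma adjusted p = 0.067), while DESeq2 kept it, the adjusted p over 9 alternatives running from 1.14e-06 to 0.512. Endothelial markers, another possible source of Esam, summed to 140 CPM in P0 WT library 1, the highest of the P0 libraries, and to 74.5 to 89.4 CPM in the other 3. In P0 ME they summed to 70.4 to 102 CPM, a range that overlapped that of WT. Mast cell and basophil markers summed to 5857, 586, 1227 and 850.0 CPM in P0 WT and to 45.3, 262, 590.0 and 208 CPM in P0 ME, with library 1 of WT highest for them and for Esam. None of these 7 markers was called (median log2 change -1.52 beside -0.01 for all genes). The part of either marker list in the Esam call was not tested.

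At P28 Esam also stood lower in both induced ME groups, without passing the test. It had 69.2, 47.0, 56.3 and 63.7 CPM in P28 WT, 33.3, 30.8, 43.6 and 32.5 in E10.5-induced ME and 45.9, 44.0, 43.6 and 43.4 in P0-induced ME. The 2 induced groups were each below every WT library, but neither passed, at -0.75 with an SE of 0.27 (adjusted p = 0.0693, edgeR) and -0.42 with an SE of 0.27 (adjusted p = 0.407, edgeR). The first passed in 5 of 8 alternatives, among them DESeq2 (-0.83, DESeq2 adjusted p = 0.0237), with adjusted p from 0.000791 to 0.0772 over edgeR, DESeq2 and limma. The ME effect at P28 minus that at P0 was 0.96 with an SE of 0.38 (adjusted p = 0.208, edgeR), so a difference between the ages was not shown. In RLT Vav Txp libraries Esam was 43.7, 71.0, 64.6 and 64.7 CPM, overlapping P28 WT (0.05, SE 0.27, adjusted p = 0.975, edgeR) and above E10.5-induced ME at 0.80 with an SE of 0.27 (adjusted p = 0.0423, edgeR), a call lost with plain totals and in 6 of 8 fits without 1 library (E10.5-induced ME 1, 2 or 4, RLT Vav Txp 2, 3 or 4), at 0.71 to 0.93 over the 8. From P0 to P28 Esam rose in ME cells by 0.83 with an SE of 0.27 (adjusted p = 0.0362, edgeR), without overlap of the groups, and was -0.13 with an SE of 0.27 (adjusted p = 0.837, edgeR) in WT. The rise in ME lost its call with RLE factors, with plain totals, when only those 2 groups were fitted, and in 5 of 8 fits without 1 library (P0 ME 2 or 4, E10.5-induced ME 2, 3 or 4), at 0.67 to 1.08 over the 8.

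Of 31 other homing and adhesion receptors 30 were tested. In E10.5-induced ME against P28 WT F11r, for the junctional molecule JAM-A and so of Esam's wider family, was lower (-0.76, SE 0.16, adjusted p = 0.00472 by edgeR), a call kept in all 8 alternatives and all 8 fits without 1 library. S1pr1, the receptor that draws cells out into the blood, was lower too (-0.83, SE 0.22, adjusted p = 0.0141 by edgeR, called in 6 of 8 fits without 1 library). In the RLT Vav Txp group Cd34 was lower than in P28 WT, at -1.25 (SE 0.20, adjusted p = 0.000407 by edgeR) with 519 ± 172 CPM against 1240.0 ± 74.2 CPM (SD, n = 4). Of the 30, 4 were higher and 3 lower there, where 4.12% of all genes were called. Cd34 is also 1 of the 10 LSK markers, which summed to 2197 to 3240 CPM there and 4559 to 5057 CPM in P28 WT. The part of these markers was not tested. From P0 to P28 in WT Spn, for the sialomucin CD43, rose (1.22, SE 0.19, adjusted p = 0.000164 by edgeR), as did the prostaglandin receptor gene Ptger4 (1.74, SE 0.35, adjusted p = 0.00274 by edgeR), and 2 of the 30 were higher and 9 lower where 7.68% of all genes were called (4 and 5 with plain totals, 2 and 3 in the fit of only those 2 groups). Among those lower were the myeloid receptors Ccr2 and Cxcr2, in P0 libraries rich in neutrophil and macrophage markers, and their part was not tested.

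**Figure D5:**
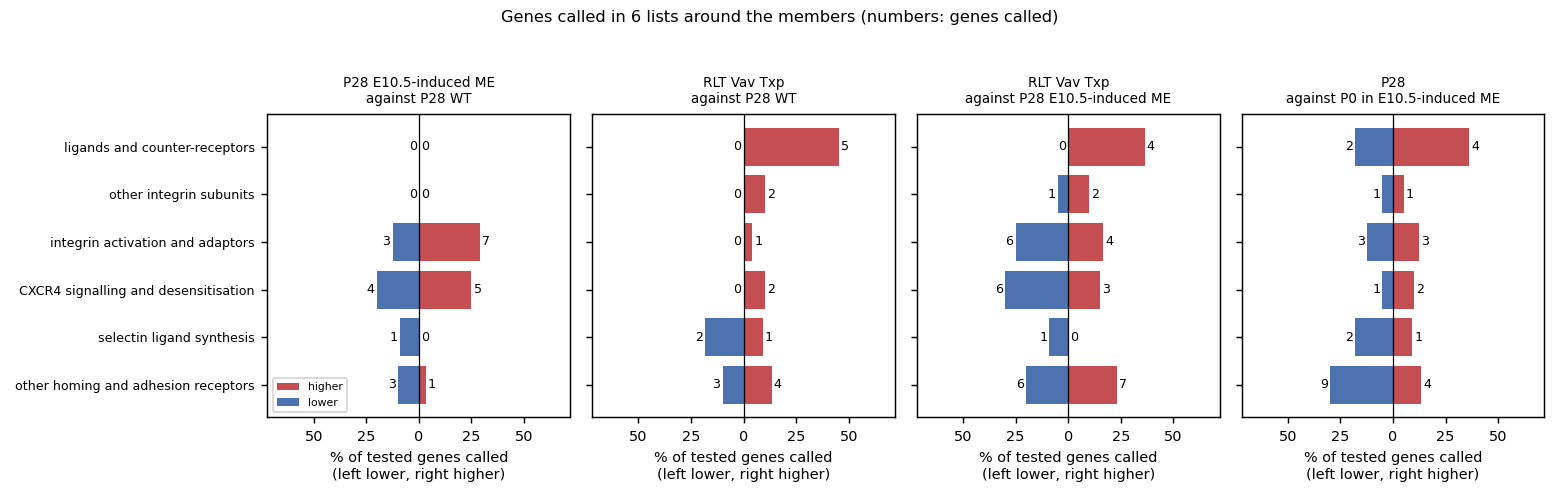
Share of the tested genes of 6 lists called higher (right) or lower (left) by edgeR in 4 comparisons, with the number of genes called beside each bar. The integrin activation list has 7 of 24 higher and 3 lower in E10.5-induced ME against P28 WT, and 4 higher and 6 lower in the RLT Vav Txp group against E10.5-induced ME.

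For each member the genes most like it over the 24 libraries were found among 9683 others, by the root mean square difference of log2 CPM after each gene's own mean was subtracted. Itgal was nearest to Notch1, at a difference of 0.30 where its own spread was 0.90 on the log2 scale. Itga4 was nearest to Tgfbr1 (0.23, own spread 0.52), Cxcr4 to Erp29 (0.25, own spread 0.51) and Esam to Krt18 (0.46, own spread 0.71). Selplg was nearest to Mboat7 (0.15, own spread 0.33), Cd44 to Klf3 (0.19, own spread 0.31) and Itgb2 to Atp8a1 (0.26, own spread 0.44). Itgb1 was nearest to Stim1 (0.14, own spread 0.29) and Cd47 to Dnajc30 (0.14, own spread 0.27). No member was the nearest gene of another, the paired integrin chains included. The libraries share groups and cell mixtures, so these are descriptions of the series.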

How the data were processed

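Per the labels' protocols, RNA came from a Qiagen RNeasy Plus extraction and was made into libraries with Clontech SMARTer reagents. The deposited values were raw read counts per Ensembl gene in 1 table of the authors with 24 count columns, all mapped to samples by title. The submitters' processing notes name STAR 2.7.9a, Subread, featureCounts 2.0.3 and GRCm38. Strand setting and treatment of reads with several matches are not given in the sources used here. Of 55774 entries, 287 repeats of 168 IDs with identical counts were dropped. Coordinates came from GENCODE M21, which held 55227 of the 55487 IDs, and promoters from RefSeq.

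The members, the lists and their tests were chosen with earlier results of these data known. Genes were kept by filterByExpr (minimum count 10) and fitted with edgeR 4.0.16 (TMM, robust quasi-likelihood, 1 mean per group, 18 residual degrees of freedom), with Benjamini-Hochberg adjustment over 23059 genes. The design text gives 4 biological replicates per group, and the errors are SDs over them or SEs of the fit. Members were given with their values in every group and with a fold change where it reached 0.25 on the log2 scale, save a few below it named beside others. From each list called genes above log2 CPM 3 on average were ranked by size of change, and up to 4 per comparison could be named. Some listed genes are not reported here. Cxcl12, Ccr2 and Cxcr2 were named after their values had been seen. The procedure was tested on simulated counts. The shallowest library has 31.2 reads per CPM, and counting error leaves out reads copied by PCR. Alternatives were RLE factors, plain totals, DESeq2 1.42.0, limma 3.58.1 with quality weights, no filter, only the groups compared, a replicate block, leaving out each library, and, chosen after seeing the data, omitting both P0 libraries numbered 1. R 4.3.3, Python 3.11.15 and matplotlib 3.10.9 were used.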

Additional observations from a re-analysis of the deposited data

Results flagged for a closer look

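In 8 of the 54 sets of 4 libraries formed by 9 members and 6 groups, 1 library stood far from the other 3, by Dixon's test of the gap to the nearest against the range. Chance gives about 1 in 20 such sets. In E10.5-induced ME, library 3 was high for Itga4 (113 CPM, the others 89.0 to 92.4) and for Itgal (197 CPM, the others 146 to 152), and library 4 was low for Itgb2 (95.4 CPM, the others 120.4 to 126). In P0 WT, library 4 was low for Itgb2 (38.1 CPM, the others 128 to 148). In P28 WT, library 1 was low for Itgb2 (81.5 CPM, the others 91.5 to 93.4) and library 3 was high for Selplg (304 CPM, the others 240.3 to 243). In the RLT Vav Txp group, library 1 was high for Selplg (237 CPM, the others 137 to 148), and in P0-induced ME, library 2 was low for Cd47 (862 CPM, the others 939 to 949.8). P0 WT library 4, flagged for Itgb2, was also the lowest of the 24 for Itga4 and Itgb1 and the highest for Cd47.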

How the results depend on the processing

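Of 51 member changes of 0.25 or more on the log2 scale, 342 of 391 values under alternatives and 400 of 440 without 1 library kept direction and side of the threshold, and 0 reversed. Most of the 51 were not called, and staying uncalled counts as kept, so these shares do not measure how stable the calls were. Without 1 library, calls were lost in 0 of 8 fits (Itgal and Selplg, RLT Vav Txp against E10.5-induced ME) to 7 of 8 (Cd44, RLT Vav Txp against P28 WT). Of 119 changes of list genes, 62 stayed called throughout and 0 reversed. Counts of members called moved as follows. In P0 ME against P0 WT (1 called) limma and the fit of only the groups compared gave 0. In E10.5-induced ME against P28 WT (0) RLE factors, plain totals and DESeq2 gave 1 each, limma 4 and only the groups compared 7. In P0-induced ME against P28 WT (0) limma gave 2 and only the groups compared 5, and against E10.5-induced ME (0) only the groups compared gave 1. In the RLT Vav Txp group against P28 WT (2) no filter gave 0, plain totals and DESeq2 3 each, limma 4 and only the groups compared 4. Against E10.5-induced ME (3) plain totals gave 2 and limma 5, and against P0-induced ME (3) no filter gave 1 and limma 5. In P28 against P0, limma gave 1 in WT (0), while in ME (2) RLE and plain totals gave 1, only the groups compared 0, and limma 3 (Itga4 and Cd44 gained, Cxcr4 lost). Without 1 library the counts ran from 0 to 3 for the RLT Vav Txp group against P28 WT, 2 to 4 against E10.5-induced ME, 1 to 3 against P0-induced ME, and 0 to 2 in both comparisons of P28 with P0. The cause of these moves was not tested. The reduced fits have fewer samples, and a fit of only the groups compared takes the spread from those groups alone. In E10.5-induced ME against P28 WT the SE of Itga4 was 0.26 in the main fit and 0.12 in that fit. For Itgal it was 0.39 and 0.17. In P0 ME against P0 WT the SE of Esam was 0.28 in the main fit and 0.39 in that fit. Omitting both P0 libraries numbered 1 changed no count in the comparisons that use P0 libraries.

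The replicate numbers of the 5 numbered groups were not taken to pair the samples. Same-number correlations of deviations were 0.66, 0.053, 0.371 and 0.464 between the P0 groups, where 3 of 4 libraries correlated best with their own number, a hint from the data and not from the design. They ran from -0.18 to 0.20 between E10.5-induced ME and P28 WT, and the lowest of all comparisons was -0.39. With a replicate block on these 20 libraries, E10.5-induced ME against P28 WT had 2 members called (Itgal, Esam) where the fit without the block had 1 (Itgal), and P28 against P0 in ME had 1 (Esam), without Cxcr4, where the fit without the block had 2. No paired analysis was possible for the RLT Vav Txp group because its libraries carry no numbers.

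The scaling moved the median of all genes. In E10.5-induced ME against P28 WT it was -0.10 with TMM, -0.18 with RLE and -0.23 with plain totals, and 63.8%, 52.2% and 33.3% of called genes were higher. The share higher also moved by over 10 points in P0 ME against P0 WT (56.8% to 67.2% with plain totals), P0-induced ME against P28 WT (31.5% to 13.8% with RLE and 14.4% with plain totals), the RLT Vav Txp group against P28 WT (64.0% to 53.3% with plain totals), WT over age (40.6% to 56.8% with plain totals) and the difference of ME effects (65.1% to 43.0% and 11.0%).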
